A study of Homo sapiens with 2 samples.

Results

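SR splicing factors are RNA-binding proteins that mark exons for inclusion, and 10 of their genes were examined here with every transcript listed for them: SRSF1, SRSF2, SRSF3, SRSF4, SRSF5, SRSF6, SRSF7, SRSF11, TRA2A and TRA2B. The genes were chosen by name. Their transcripts were found by matching the identifiers in the transcript tables, without version, to the human annotation GENCODE v44 (GRCh38). This gave 10 of the 59026 matched genes and 111 of the 206696 listed transcripts. For each gene the total was taken in each library and divided into transcripts that GENCODE v44 classes as protein_coding, nonsense_mediated_decay or retained_intron, with a remainder classed as protein_coding_CDS_not_defined.

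The libraries came from HEK293 Flp-In T-Rex cells, a human kidney-derived line with 1 genomic landing site for inducible transgenes. The cells were untreated, and total RNA was depleted of ribosomal RNA before TruSeq library construction. There was 1 group with 2 libraries, replicate 1 and replicate 2, and no control or contrasting group, so that comparisons are between genes, transcripts and libraries. Separate cultures are not stated for the 2 libraries, so their spread may be technical.

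Most SR genes can make a transcript that does not encode the full protein. In many of them an extra exon, called a poison exon, brings in a premature stop codon, and such a transcript can be degraded by nonsense-mediated decay (NMD), the pathway that removes mRNAs whose stop codon lies well upstream of an exon junction. SR proteins are known to promote the inclusion of such exons in their own transcripts and in those of relatives, and several of these exons lie within ultraconserved stretches of the genome. The level of an NMD transcript measured in RNA is what remains after decay, not what was spliced.

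A poison exon was defined here as an internal exon of a nonsense_mediated_decay transcript without any base in an exon of the canonical transcript of that gene. By this rule 8 of the 10 genes held 16 such exons, from 69 to 456 nt long, and SRSF1 and SRSF5 held none. The rule was applied to the members only, so these counts describe them and cannot be set against other genes. Of the 16 exons, 11 in 7 genes contained the annotated premature stop. The length of 6 of the 16 was a multiple of 3. The stretches from the start of the exon to the stop codon are printed for these 7 genes, taking the exon with the highest counts where a gene had several with a stop, because they end the reading frame in the decay transcripts. Letters are from GENCODE v44 transcripts, 5′ to 3′ on the strand of the gene. Capitals mark the stop codon at the end and, where present, the motif GAAGAA.

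SRSF3, chr6:36599821-36599854, plus strand, between canonical exons 3 and 4: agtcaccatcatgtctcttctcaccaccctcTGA
SRSF4, chr1:29166009-29166064, minus strand, between canonical exons 1 and 2: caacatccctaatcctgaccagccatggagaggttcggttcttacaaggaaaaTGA
SRSF6, chr20:43459153-43459304, plus strand, between canonical exons 2 and 3: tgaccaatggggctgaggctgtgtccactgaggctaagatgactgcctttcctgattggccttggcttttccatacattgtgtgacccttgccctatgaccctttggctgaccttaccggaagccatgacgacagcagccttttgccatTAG
SRSF7, chr2:38749319-38749346, minus strand, between canonical exons 3 and 4: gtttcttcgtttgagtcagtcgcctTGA
SRSF11, chr1:70231859-70231908, plus strand, between canonical exons 2 and 3: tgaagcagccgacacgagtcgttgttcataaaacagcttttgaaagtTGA
TRA2A, chr7:23522289-23522432, minus strand, between canonical exons 1 and 2: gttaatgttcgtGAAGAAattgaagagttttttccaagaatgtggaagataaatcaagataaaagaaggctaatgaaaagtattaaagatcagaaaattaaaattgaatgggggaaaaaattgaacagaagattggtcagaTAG
TRA2B, chr3:185931772-185931852, minus strand, between canonical exons 1 and 2: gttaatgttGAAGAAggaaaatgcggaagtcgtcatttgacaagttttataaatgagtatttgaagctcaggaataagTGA

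The stop came after 28 bases in SRSF7 and 34 bases in SRSF3, but only after 144 bases in TRA2A and 152 bases in SRSF6. The TRA2A and TRA2B stretches opened with the same 9 bases. GAAGAA, a motif of the kind TRA2 proteins are known to bind, was searched on both strands, and overlapping copies were counted separately. On the strand of the gene it occurred 4 times in the whole 301-nt exon of TRA2A, of which 1 copy lies before the stop. In TRA2B there were 3 copies in the 276-nt exon, again with 1 before the stop. Of internal canonical exons within 10% of these lengths, 23.2% and 21.2% held the motif. It was found once in the 449-nt exon of SRSF7, where 33.6% of exons of like length held it, and not in the exons of SRSF3, SRSF4, SRSF6 or SRSF11 whose first bases are printed. On the opposite strand, the exons of SRSF3 and SRSF7 each held 1 copy. A match is a description of the letters and does not show binding. The map of exons places these inserts within their genes.

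**Figure D1:**
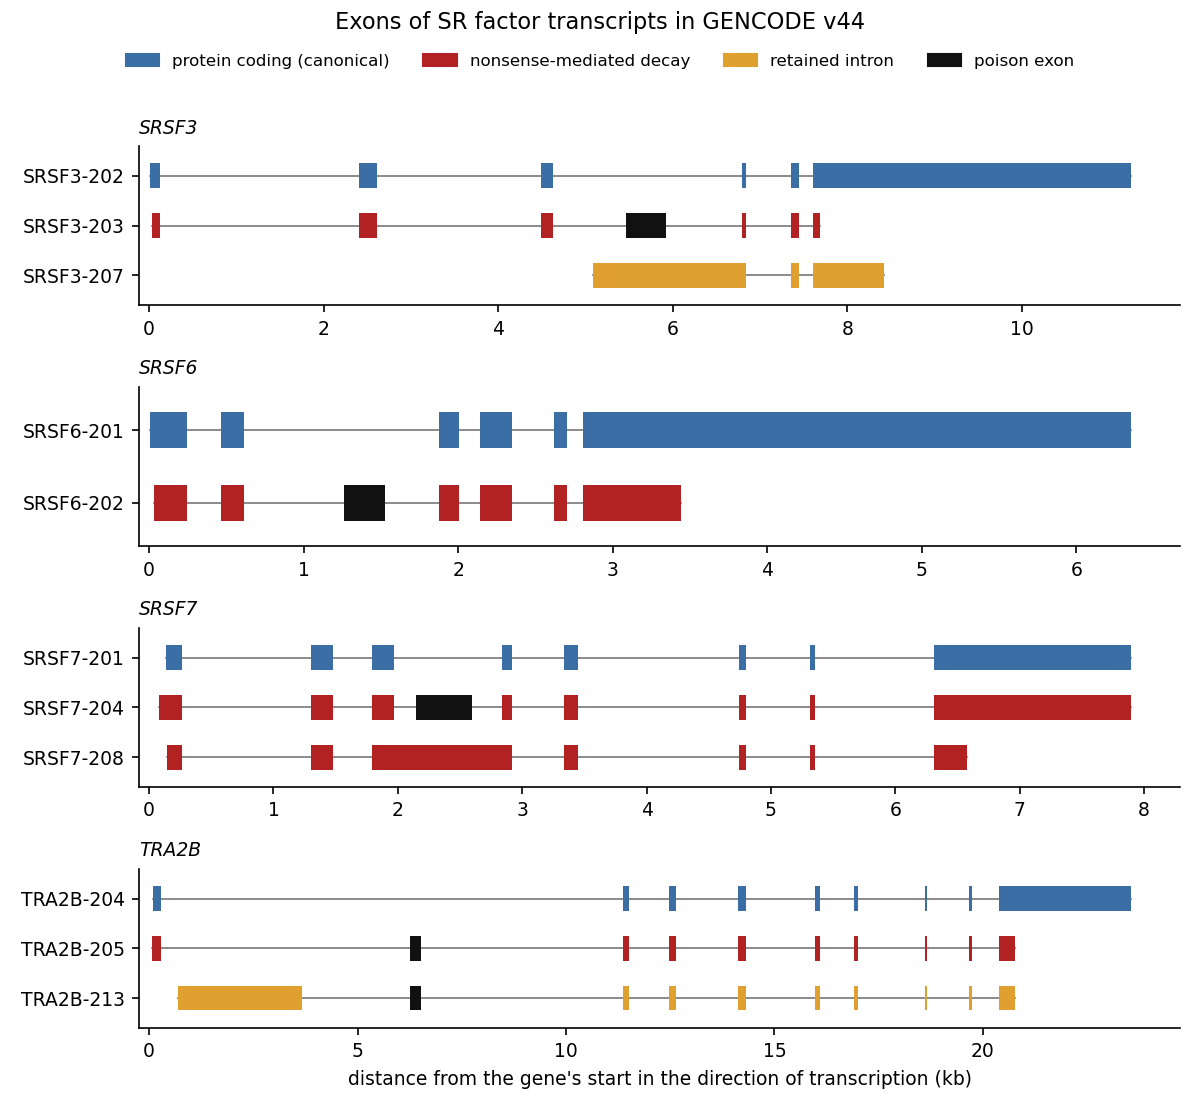
Exons of the canonical transcript (blue), of nonsense_mediated_decay transcripts (red) and of retained_intron transcripts (yellow) of SRSF3, SRSF6, SRSF7 and TRA2B, drawn to scale against the distance from the start of the gene in kb, with poison exons in black. The poison exon of TRA2B lies between canonical exons 1 and 2 and is shared by TRA2B-205 and TRA2B-213, while SRSF7-208 has no poison exon and reads through the intron between canonical exons 3 and 4.

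Replicate 1 held 25158962 estimated counts and replicate 2 held 27143860. The 10 genes took 35485 of these in replicate 1 (0.141%) and 34631 in replicate 2 (0.128%). Of the 111 transcripts, 18 were at 0 in both libraries and 15 in only 1 of them. No share over all listed transcripts is set beside these counts, so they only describe the members. Of the markers known in HEK293, VIM held 16407 and 15363 normalised counts and KRT8, KRT18 and NEFL lay between 1405 and 2067, whereas PAX2, LHX1 and NEFM were at most 117; PTPRC, CD3E, ALB and MYH7, markers of other cells, were listed at 0, PECAM1 at about 1, HBB at 179 and 182, and COL1A1 at 156 and 291. Values below are the authors' normalised counts, that is estimated counts divided by a size factor per library.

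Among the SR proteins with a pair of RNA recognition motifs, SRSF1, which is the prototype of the family and a regulator of splice site choice, had a total of 6531 normalised counts for replicate 1 and 5536 for replicate 2. SRSF4 summed to 4337 and 3843. SRSF5 summed to 1615 and 1596, and SRSF6 to 1729 and 1397. These totals are counts, which grow with transcript length, and are not ranked here between genes. Of the members with a single RNA recognition motif, SRSF2, an activator of exon inclusion, summed to 4105 and 4458. SRSF3 and SRSF7, which also act as adaptors in mRNA export, summed to 5933 and 4889 and to 3943 and 3110.1. SRSF11, a more distant relative, reached 4395 and 3155. TRA2A and TRA2B, the human homologues of a fly sex determination factor, reached 1079 and 900.4, and 3879 and 3229. Every one of these genes was therefore well counted in both libraries.

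Replicate 2 was lower for 9 of the 10 genes, with SRSF2 the exception. Over all 12377 genes with at least 100 normalised counts in both libraries, 60.5% were lower in replicate 2. The median log2 ratio of replicate 2 to replicate 1 was -0.26 for the SR genes and -0.10 for all of these genes. The steepest difference was in SRSF11, at -0.48. SRSF5 differed least, at -0.02. No p-value is attached, since the libraries represent a single condition.

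Levels can be compared between genes only per length. For this, the normalised count of each transcript was divided by its length in GENCODE v44, and the results of a library were brought to a sum of 1000000. On the resulting length-divided scale SRSF3 (134.0 ± 14.7, SD, n = 2) and SRSF1 (131 ± 23.1) were highest, in an order that differed between the libraries. SRSF7 (94.3 ± 13.7), SRSF2 (91.0 ± 6.83), SRSF11 (77.6 ± 7.38) and TRA2B (77.1 ± 6.79) followed, and none of these neighbours differed from the next beyond the sum of their SDs. The step from SRSF1 to SRSF7 exceeded that sum only at the margin, with 36.83 against 36.82. SRSF5 (69.8 ± 0.347) and SRSF4 (61.9 ± 5.02) each lay below the preceding gene by more than the spread. For SRSF5 this was again only at the margin, with 7.28 against 7.14. TRA2A (27.0 ± 0.0478) and SRSF6 (19.4 ± 1.42) were lowest in both libraries. In counts, SRSF4 ranked 4 of 10 and SRSF7 ranked 7, against 8 and 3 on the length-divided scale.

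**Figure D2:**
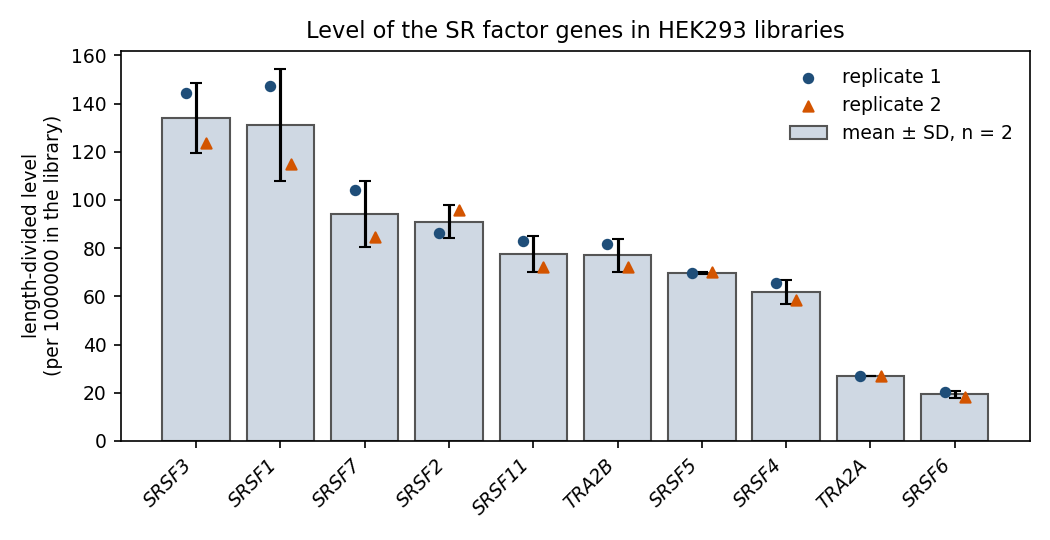
Length-divided level (normalised count over transcript length, brought to a sum of 1000000 for each library) of the 10 SR genes, with replicate 1 as circles, replicate 2 as triangles and bars for the mean with SD as whiskers (n = 2). SRSF3 and SRSF1 stand highest and TRA2A and SRSF6 lowest, and the whiskers of SRSF7, SRSF2, SRSF11 and TRA2B overlap from each of these 4 genes to the next.

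Transcripts classed as protein_coding took the majority of the counts of the SR genes, but far from all. Summed over the 10 genes, the protein_coding share was 60.8% and 56.9% in replicates 1 and 2, with a mean of 58.8% ± 2.71 (SD, n = 2). The nonsense_mediated_decay share was 13.4% and 18.9% (16.1% ± 3.90). The retained_intron share was 19.7% and 17.8% (18.7% ± 1.32). Without SRSF2 the decay share was 12.3% and 13.6%, so the libraries lay closer together.

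The genes fell at very different points between mostly protein_coding and mostly other transcripts. SRSF4 was at one end, with 89.0% and 89.6% of its counts in protein_coding transcripts. At the other end in counts, SRSF5 had 30.8% and 26.6% and TRA2B 37.6% and 33.4%. Divided by length, SRSF11 was lowest with 23.6% and 19.5%, SRSF5 had 31.7% and 28.2%, and TRA2B rose to 52.2% and 44.7%. SRSF5, SRSF11 and TRA2A also held a large remainder without a defined coding sequence, at 15.9% and 23.5% in SRSF5, 29.9% and 35.3% in SRSF11, and 19.6% and 27.7% in TRA2A. The protein_coding class does not separate spliced from intron-retaining RNA. SRSF1-205 and SRSF2-203, both of this class, each have an exon that reads through an intron of the canonical transcript. They held 66.5% and 56.4% of SRSF1, and 36.8% and 37.1% of SRSF2. The plot of transcript classes shows these profiles gene by gene.

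**Figure D3:**
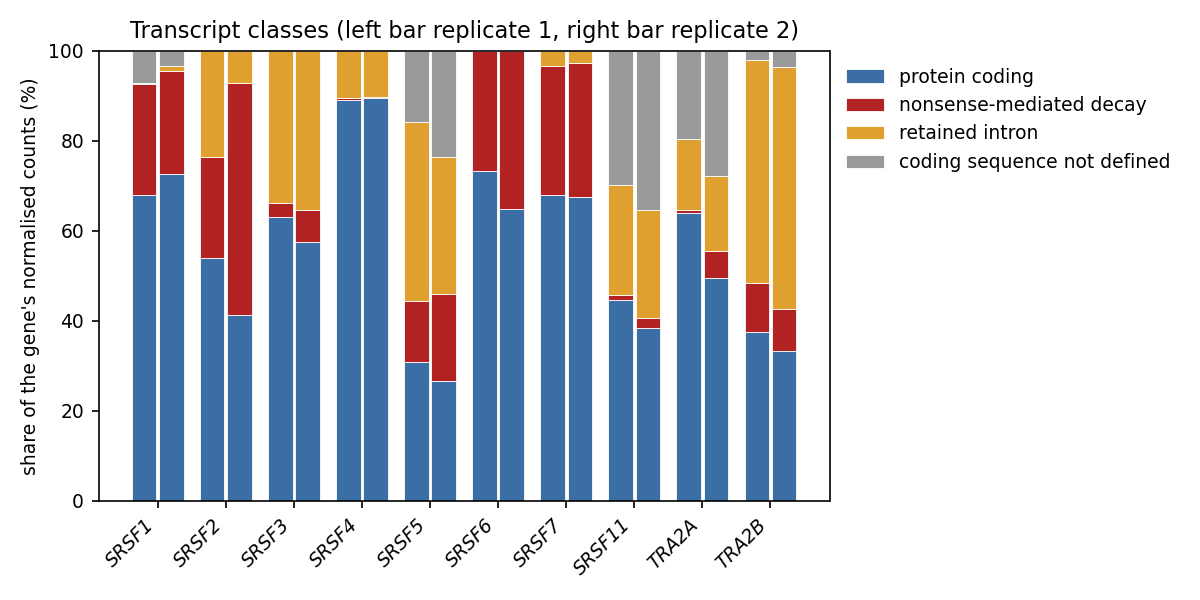
Share of each SR gene's normalised counts (%) in transcripts classed by GENCODE v44 as protein_coding (blue), nonsense_mediated_decay (red), retained_intron (yellow) or without a defined coding sequence (grey), with the left bar for replicate 1 and the right bar for replicate 2. Decay transcripts are prominent in SRSF1, SRSF2, SRSF6 and SRSF7, retained introns in TRA2B, SRSF5 and SRSF3, and the red and yellow parts of SRSF2 differ most between libraries.

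Decay transcripts reached at least 10% of the gene in both libraries in 5 of the 10 genes, namely SRSF1, SRSF2, SRSF5, SRSF6 and SRSF7. For comparison, protein-coding genes were taken that have at least 1 listed transcript of each of the 3 classes and at least 100 normalised counts in both libraries. Of these 4016 genes, 29.3% reached the same level, and 4 of the 9 SR genes that belong to them did so. Divided by transcript length, SRSF5 no longer reached it, which left 3 of the 9 SR genes beside 34.7% of the 4016. SRSF6 is not among them, as it has no listed retained_intron transcript. Retained_intron transcripts reached 10% in both libraries in 6 SR genes, SRSF3, SRSF4, SRSF5, SRSF11, TRA2A and TRA2B, all within the 9, against 28.4% of the 4016 genes. Divided by length, SRSF4 (6.65% and 5.27%) and SRSF11 (11.7% and 9.62%) no longer did. The remaining 4 of 9 stood beside 45.2% of the 4016 genes, so the excess of genes that reached 10% was present in counts only. The median retained_intron share over these 9 SR genes was 16.2%, beside 5.50% over the 4016 genes, and the median decay share was 10.1% beside 4.27%. Median protein_coding shares were 56.8% and 81.5%. Divided by length, the medians of the 9 genes and of the 4016 were 15.3% and 10.9% for retained introns, 7.54% and 6.93% for decay, and 41.7% and 67.9% for protein_coding. For single genes, the retained_intron share of TRA2B lay above that of 97.4% of the 4016 genes, and those of SRSF5 and SRSF3 above 93.7% and 93.4%. Divided by length, these positions were 88.6%, 91.6% and 74.2%. The decay shares of SRSF4 and SRSF11, at the other end, lay above only 20.9% and 35.2%. With division by length these were 18.8% and 44.7%.

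**Figure D4:**
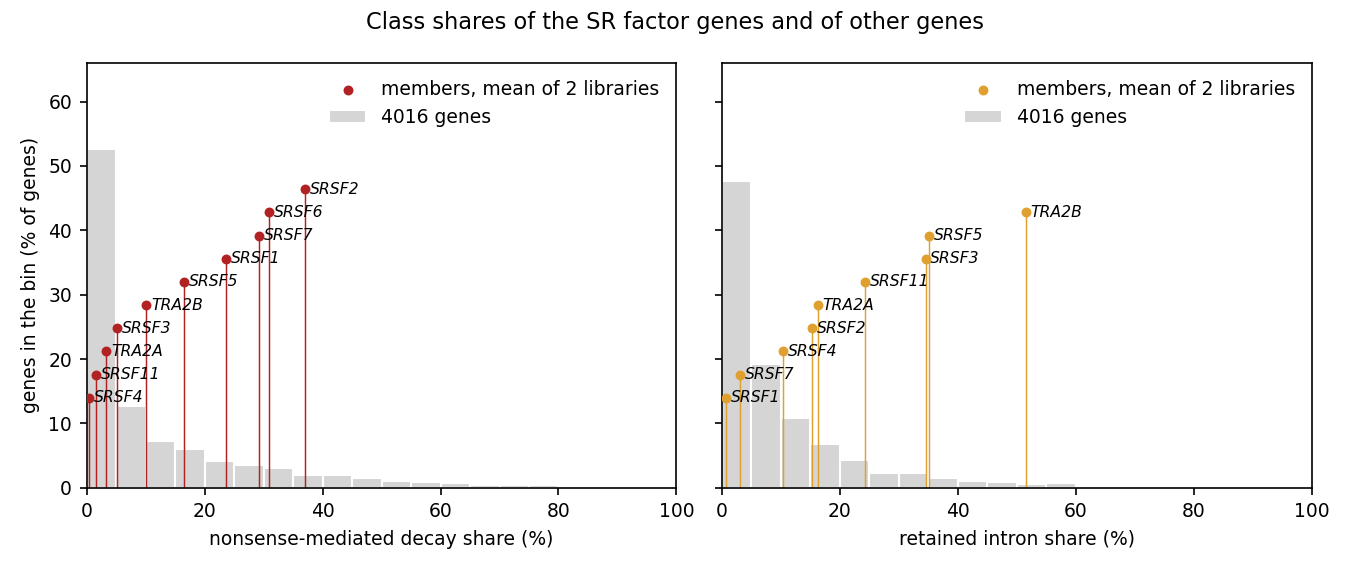
Mean decay share (left) and retained-intron share (right) of the SR genes over both libraries (points on stems, %), over histograms of the same shares in 4016 genes with all 3 transcript classes listed (grey, % of genes per 5% bin). The height of a point only separates the names. Most of the 4016 genes sit in the lowest bins, TRA2B stands far to the right for retained introns, and SRSF6 is left out on the right because no such transcript of it is listed.

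The cleanest case of a poison exon was SRSF6, a regulator of alternative splicing, because only a coding and a decay transcript of it were listed. SRSF6-201, the canonical transcript, was at 1268 normalised counts for replicate 1 and 905 for replicate 2. SRSF6-202, which carries the 268-nt exon printed above, held 461 and 492. The decay transcript was thus almost level between the libraries while the coding one was lower in replicate 2. Its share was 26.7% in replicate 1 (95% exact Clopper-Pearson interval 24.6 to 28.9%) and 35.2% in replicate 2 (32.8 to 37.7%). Such intervals cover counting error only, not the division of reads among transcripts. Since SRSF6-201 (4353 nt) is much longer than SRSF6-202 (1680 nt), division by length raised the share to 48.5% and 58.5%. The listed version of SRSF6-201 is not that of GENCODE v44, so the length of the model counted by the authors can differ. In GENCODE v44 a gene of the same strand, ENSG00000288000, spans most of SRSF6, and none of its transcripts is among those listed.

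In counts TRA2B had the largest share of retained_intron transcripts, 49.4% in replicate 1 and 53.6% in replicate 2. Divided by length the share was 31.3% and 36.7%, and that of SRSF5 (42.1% and 34.5%) was higher on average. TRA2B-213 was its leading transcript in both libraries, with 754 and 667 normalised counts, followed by TRA2B-214 with 671 and 620.3. The coding TRA2B-201 and TRA2B-202 held 626 and 282, and 359 and 497, so their order was exchanged between libraries. The decay transcript TRA2B-205, which has the poison exon between canonical exons, held 423 and 299. It was the only decay transcript listed for TRA2B.

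TRA2B-213 contains the same poison exon as TRA2B-205, although it is classed as retained_intron. Counted over all classes, transcripts with the exon held 30.3% and 29.9% of TRA2B (30.1% ± 0.303, SD, n = 2). The share was therefore close in both libraries, whereas the decay class alone captured only 10.9% and 9.26%. In TRA2B-213, however, 72.9% of the 4485 nt lie outside canonical exons, and the poison exon is 276 nt of it. A count per transcript does not tell which bases the reads covered. Divided by length, the share was 18.4% and 16.5%. TRA2B-205 has no 50-nt stretch that is absent from all other listed TRA2B transcripts, so reads assigned to it also fit others.

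TRA2A, the paralogue, was lower and less even. Its 301-nt exon was carried by TRA2A-202, classed as protein_coding, with 103 normalised counts in the first library but 0 in the second, and by the decay transcript TRA2A-211, which supplies the stop printed above and was at 0 in both. TRA2A-211 has no 50-nt stretch of its own, and only 2.20% of the stretches of TRA2A-202 are found in no other TRA2A transcript, so a 0 for them can reflect how shared reads were divided and sets no limit on the exon. TRA2A-203 contains a shorter exon of 79 nt from the same start and held 7.22 and 54.2. The share of transcripts with either exon was 10.2% and 6.02%. The libraries thus placed the TRA2A counts in different exon-bearing transcripts. In counts TRA2A-201, the canonical coding form, led with 533 and 392. TRA2A-204, without a defined coding sequence, followed with 166 and 225. Per length TRA2A-201 led in replicate 1 (39.8% against 25.6%) and TRA2A-204 in replicate 2 (35.3% against 29.9%). The intron-retaining TRA2A-209 held 159 and 141, and the retained_intron share was 15.8% and 16.6%.

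SRSF7 combined a poison exon with another route to decay. The leading transcript SRSF7-202, a coding one, held 1928 and 1561 normalised counts. SRSF7-208, which reads through the whole intron between canonical exons 3 and 4, held 674 and 449. SRSF7-204, with the 449-nt exon inside that same intron, held 416 and 373. Both are classed as nonsense_mediated_decay, and the class held 28.7% and 29.6% of the gene, with overlapping exact intervals (27.3 to 30.2% and 28.1 to 31.2%). Poison-exon transcripts made up 11.6% and 15.1%. Neither SRSF7-204 nor SRSF7-208 has a 50-nt stretch of its own.

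SRSF3, the smallest SR protein, was dominated by 2 coding transcripts and by intron retention around the poison exon. SRSF3-208 held 2314 and 1771 normalised counts and the canonical SRSF3-202 held 1428 and 1041. A pair of retained_intron transcripts followed, SRSF3-207 with 1122 and 1091 and SRSF3-205 with 862 and 601. SRSF3-207 begins inside the intron that holds the poison exon and runs through to canonical exon 4. Together the retained_intron class held 33.8% and 35.3%, or 20.5% and 21.5% when divided by length. The spliced poison-exon transcript SRSF3-203 held only 172 and 309, or 2.91% and 6.33% of the gene. It was higher in replicate 2, although the gene total was lower there.

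SRSF11 showed the poison exon mainly in a transcript outside the decay class. The 117-nt exon was carried by 3 transcripts with 13.7% and 14.6% of the gene. Most of this was SRSF11-208, which has no defined coding sequence, with 583 and 424 normalised counts. The listed version of SRSF11-208 is not that of GENCODE v44, so the model counted by the authors can differ in this exon. SRSF11-214 covers the bases of the exon within a longer exon and is not among the 3 transcripts. Decay transcripts held 0.976% and 2.21%, and poison exons in all classes 14.3% and 15.7%. The leading transcript was SRSF11-202 in replicate 1 (1095 against 400 in replicate 2) but the retained_intron SRSF11-214 in replicate 2 (1073 and 760). SRSF11-202 has no 50-nt stretch of its own either.

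SRSF4 had the highest protein_coding share of the 10 genes, with 10.5% and 10.2% in retained_intron transcripts. SRSF4-201 held 3861 and 3443 normalised counts. The retained_intron SRSF4-207 held 418 and 370, and contains a 175-nt exon that also occurs in the decay transcript SRSF4-205 (19.9 and 9.33). Poison exons of any class thus stood at 10.1% and 9.86%, of which decay transcripts were 0.458% and 0.243%. SRSF4-207 is 8128 nt long, with 76.2% outside canonical exons, and after division by length the share was 3.62% and 3.28%.

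**Figure D5:**
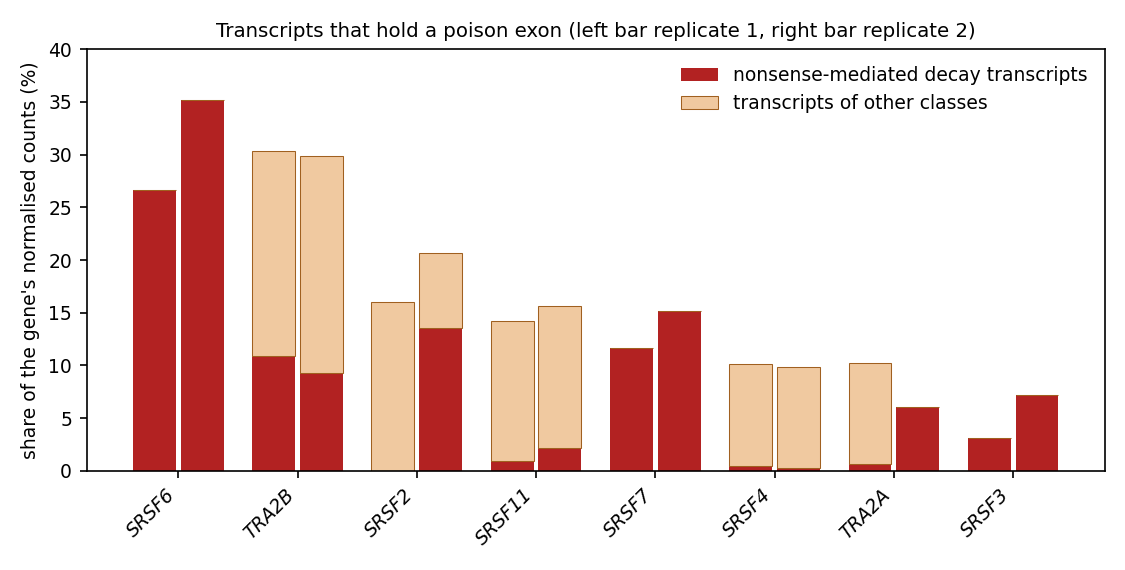
Share of each gene's normalised counts (%) in transcripts that hold a poison exon, split into nonsense_mediated_decay transcripts (red) and transcripts of other classes (light), with the left bar for replicate 1 and the right bar for replicate 2. In SRSF6, SRSF7 and SRSF3 the whole share is of the decay class, while most of it is of other classes in TRA2B, SRSF11 and SRSF4.

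In SRSF2 the exon met by the rule lies behind the stop codon. The 104-nt exon (chr17:76735772-76735875, minus strand, between canonical exons 2 and 3) holds no annotated stop, and the decay transcripts SRSF2-204 and SRSF2-208 use the canonical stop codon, after which a further junction follows. SRSF2-208 held 922 and 1699 normalised counts. SRSF2-204 was at 0 in replicate 1 and at 604 in replicate 2. The retained_intron SRSF2-206, with the same exon, held 657 and 316.

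The decay and retained_intron shares of SRSF2 differed between the libraries more than those of any other SR gene. Its decay share was 22.5% in replicate 1 (95% exact interval 21.1 to 23.8%) and 51.7% in replicate 2 (50.3 to 53.1%). The canonical coding SRSF2-202 held 707 in replicate 1 and 0.10 in replicate 2. The coding SRSF2-203 was steady at 1509 and 1655. SRSF2-202, SRSF2-204 and SRSF2-208 have no 50-nt stretch that is missing from the other SRSF2 transcripts. MFSD11, on the opposite strand, overlaps 1469 bases of SRSF2 and held 911 and 915 normalised counts. The strand setting of the counting is not given in the sources used here, so reads in the overlap can belong to either gene, and their part in the SRSF2 values was not tested. Over all poison-exon-bearing transcripts, the SRSF2 share was 16.0% and 20.7%.

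SRSF1 and SRSF5 made decay transcripts without a poison exon as defined here. SRSF1-205, a coding transcript, led with 4344 and 3121 normalised counts. Like TRA2B-205, SRSF1-205 has no stretch of its own, so reads assigned to it also fit other transcripts. The canonical coding SRSF1-201 differed widely between libraries, with 82.7 and 767, or 1.27% and 13.8% of the gene. Of the stretches of SRSF1-201, 46.1% are found in no other SRSF1 transcript. SRSF1-207 held 741 and 769, and has the canonical stop with the last junction 127 nt downstream of it. SRSF1-206 held 869 and 489, and its stop lies in intronic sequence next to a canonical exon. The decay share of SRSF1 was 24.6% and 22.7%, with overlapping exact intervals. Divided by length it was 38.4% and 43.2%, and the protein_coding share fell from 67.9% and 72.7% to 34.9% and 39.9%. ENSG00000266086, on the same strand, spans SRSF1 almost entirely and held 377 and 409.

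SRSF5, a regulator whose gene lists 19 transcripts, was spread over many of them. SRSF5-216, without a defined coding sequence, led with 257 and 354 normalised counts. The decay transcript SRSF5-211 held 220 and 310, the coding SRSF5-209 held 211 and 234, and the retained_intron SRSF5-219 held 215 and 100.4. The highest share of any SRSF5 transcript was 22.2%, for SRSF5-216 in replicate 2. SRSF5-211 reads through intronic sequence (46.5% of its 2057 nt) and divided by length its share fell from 13.6% and 19.4% to 5.54% and 7.90%.

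Over the 10 genes, 22 decay transcripts were listed, with 57 to 1138 nt between the stop codon and the last junction. Stops inside a poison exon occurred in 12 of these transcripts, which held 31.7% of all decay counts in replicate 1 and 27.9% in replicate 2. The 3 transcripts that keep the canonical stop but have a later junction, all of SRSF1 and SRSF2, held 33.1% and 50.6%. A further 35.1% and 20.6% was in 5 transcripts whose stop lies in intronic sequence next to a canonical exon. Poison exons in the strict sense thus made up the minority of the decay counts of these genes in both libraries. When transcripts of every class were counted, those with a poison exon held 10.96% and 12.9% of the counts of the 10 genes. No such share was taken for other genes.

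The 111 transcripts differed in how well the libraries repeated. Of the 86 that averaged 10 normalised counts or more, 29 differed by more than 2-fold between libraries, beside 29.6% of the 67167 transcripts compared in the same way. Both libraries ranked the same transcript first in 8 of the 10 genes, with SRSF2 and SRSF11 as the exceptions, beside 84.4% of 11207 genes with several transcripts. Divided by length it was 6 of 10, beside 78.0%, and the exceptions were others: SRSF2 and SRSF11 then kept 1 leader, while SRSF1, SRSF6, TRA2A and TRA2B did not. Class shares repeated within counting error for some of the members. The exact intervals of the 2 libraries overlapped for the protein_coding share in 3 of the 9 genes (SRSF4, SRSF5 and SRSF7), beside 55.3% of the 4016 genes. For the decay share they overlapped in 4 of 9 (SRSF1, SRSF4, SRSF7 and TRA2B), beside 58.5%. For the retained_intron share they did in 5 of 9 (SRSF3, SRSF4, SRSF7, SRSF11 and TRA2A), beside 75.0%. Such intervals narrow as counts rise. The 4016 genes needed only 100 normalised counts and were not matched to the members in depth. These shares therefore do not compare repeatability between members and other genes. The decay share was higher in replicate 2 in 7 of the 10 genes, or 6 of the 9 with all classes listed, beside 47.5% of the 4016 genes. The retained_intron share was higher there in 4 of the 9, beside 53.9%, and the protein_coding share in 2 of the 9, beside 43.9%. Of the 22 decay transcripts, 10 had no 50-nt stretch of their own, as had 11 of 37 protein_coding and 8 of 36 retained_intron transcripts. Such stretches were searched in the members only, so these counts have no share of other genes beside them.

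The other SR and SR-related genes were described in the same way. Of 13 such genes, 11 had all 3 classes listed. Of these, 2 reached 10% decay transcripts in both libraries and 5 reached 10% retained introns, beside 29.3% and 28.4% of the 4016 genes. SNRNP70, the U1 snRNP protein that contacts SR factors, was one of the former, with a decay share of 19.3% and 26.1%. RBM39, an RS-domain splicing factor, was the other, with 16.4% and 24.4%, and it also held 59.1% and 49.0% in retained_intron transcripts. U2AF1, the small subunit of the factor that recognises the end of introns, had the highest retained_intron share on average, at 59.1% and 88.0%. In replicate 1 RBM39 was marginally higher. The protein_coding share of U2AF1 was 35.3% and 8.13%, so its libraries differed widely. SRRM1 had 44.2% and 25.5% in retained_intron transcripts. SRSF10, a relative known from the heat shock response, had 23.1% and 29.7%. In contrast, U2AF2, RNPS1 and SRRM2 averaged 90.0%, 91.2% and 92.7% protein_coding. The medians of this list were 4.70% for decay and 11.1% for retained introns. All shares and calls of this list are on counts, not divided by length.

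Among 13 hnRNP genes with all classes, proteins that often oppose SR factors at exons, 4 passed for decay and 4 for retained introns, with medians of 4.63% and 3.51%. The kinases of the CLK and SRPK families, which phosphorylate RS domains, had 2 of 5 for decay, CLK1 and CLK4. CLK1 held 42.5% and 43.6% in decay transcripts, a share above that of any SR gene but SRSF2 in replicate 2. Genes of the decay pathway itself, from UPF1 to SMG9, had 0 of 3 for decay and 2 of 3 for retained introns. Over the 4016 genes, 29.3% passed for decay and 28.4% for retained introns. These calls too are on counts, not divided by length.

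The genes whose mean class shares lay nearest to the medians of the 9 SR genes given above (56.8%, 10.1% and 16.2%), by Euclidean distance over the 3 shares of counts, were GAS8 (distance 3.25 percentage points), ITFG2 (4.04), PIGG (4.67), BBS2 (4.86) and PGS1 (4.87). The likeness rests on means of 2 libraries. For GAS8 the decay share was 22.1% in replicate 1 and 0% in replicate 2, and for ITFG2 2.37% and 20.9%. PIGG and BBS2 were closer between libraries, with decay shares of 12.2% and 14.7% and of 8.0% and 12.8%.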

How the data were processed

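Total RNA of 2 HEK293 Flp-In T-Rex libraries had been depleted of rRNA and sequenced. Per the submitters' processing notes FastQC, STAR 2.7.0d, RSEM 1.3.3 and R 3.6.3 were used; the genome was GRCh38. Filters and the setting for strand are not given in the sources used here. For every transcript, the deposited tables hold an estimated count by RSEM, in which a read that matches more than 1 transcript is shared out. Another deposited column, a normalised signal, is that count over a library size factor (0.945 and 1.08). Depth was 25158962 and 27143860 estimated counts.

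Transcript identifiers, versions removed, were looked up in GENCODE v44, where 202217 of 206696 were found. Of the 111 SR transcripts, 97 had the same version and none of the 10 canonical ones did; 7 GENCODE v44 transcripts of these genes are not listed. Classes, lengths and exons were taken from GENCODE v44, so the models counted by the authors can differ from them. Shares are of normalised counts, with exact 95% intervals of rounded estimated counts. With 1 group there was no test. A difference between genes was called beyond the spread when the order was the same in each library and the means lay further apart than the summed SDs. Named transcripts held at least 10% of their gene on average or were the highest of their class; others carry a poison exon or are canonical and were named after their values were seen. The other genes named came from lists, and the 5 nearest genes from their distance; examples within the lists were chosen after their values were seen. Members and lists were chosen with earlier results of these data known. The share calculation was tested on simulated data. Python 3.11.15, pandas 2.3.3, NumPy 2.4.6 and SciPy 1.17.1 were used. The tables of METTL8 transcripts were not used. Alternatives covered length, version, low transcripts, single libraries, other classes and a pseudocount of 0.1.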

Additional observations from a re-analysis of the deposited data

How the results depend on the processing

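Division by GENCODE v44 length moved the summed shares of the 10 SR genes: protein_coding to 50.6%, retained_intron to 15.7% and poison exons to 10.5%, from 58.8%, 18.7% and 11.9%. The decay share moved within 1 SD (16.1% to 19.8%). Of the class shares of single genes, 23 moved by more than their SD with length and 6 did not, so the shares of transcripts of very unequal length are the least certain. Restriction to transcripts with the same version gave 45.8% protein_coding, 21.99% decay and 25.6% retained_intron; by construction this drops all 10 canonical transcripts. The poison exon share was 5.79% with decay transcripts alone and, in an alternative chosen after seeing the data, 9.51% with exons that hold an annotated stop. Protein_coding transcripts alone summed to 20547 normalised counts instead of 34830.0. The filter of 1 normalised count in both libraries moved 2 of 29 single shares and none of the 3 summed ones, and the unweighted mean of the 10 genes moved none of these 3. Leaving out SRSF2, also chosen after seeing the data, moved none by more than 1 SD, with a decay share of 12.9%. A pseudocount of 0.1 changed no sign of the 10 library differences. The same leading transcript was found in 6 instead of 8 genes per length, with other exceptions. The counts of all genes per length, set beside those of the SR genes, were added after seeing the data. With replicate 1 or replicate 2 alone, the summed shares were 56.9 to 60.8% protein_coding, 13.4 to 18.9% decay, 17.8 to 19.7% retained_intron and 10.96 to 12.9% poison exon, and the total 32114 to 37547; a single library of 2 always lies within 1 SD of their mean, so this says nothing about stability. Per 1000000 estimated counts the total was 1343 ± 95.2 (SD, n = 2).

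No paired analysis was possible because there is 1 group and no comparison between groups. Reads were assigned among overlapping transcripts by RSEM, so counting error understates the uncertainty, and only 2 libraries measure it. A transcript at 0 in 1 library can be a matter of that assignment, so no limit was placed on it.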
